A study of Mus musculus with 9 samples.

Results

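Fezf2, Rprm, Bcl11b, Tle4, Foxp2, Tbr1, Crym, Syt6 and Pcp4 are genes by which neurons of the deep layers of the cortex, and those that send axons out of the cortex, are recognised. The 9 symbols were looked up in a table of read counts for 55335 gene rows, and each was found once, with counts above 0 in every library. The table comes from RNA of the prelimbic cortex, a medial prefrontal area, of 9 mice on day 14 after surgery, 1 library per mouse and 3 mice per group. The R-HNK mice had a spared nerve injury and received R-HNK, a hydroxynorketamine formed from ketamine, at 10 mg/kg. The injured saline mice had the same injury and received saline, and the sham mice had sham surgery and saline. Spared nerve injury, a model of neuropathic pain, severs part of the sciatic nerve and spares the rest. The sources used here give no strain, sex or age. All 9 genes passed the filter on low counts, which left 21765 genes for testing.

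Deep-layer projection neurons arise early in cortical development and fall into layer 5 cells that project to the brainstem and spinal cord (extratelencephalic cells) and layer 6 cells that project to the thalamus (corticothalamic cells). Their identity is set by transcription factors that act on one another: Fezf2 and its downstream factor Bcl11b favour the layer 5 fate, and Tbr1 favours the layer 6 corticothalamic fate. In the prelimbic cortex these cells carry output to subcortical areas, among them the periaqueductal grey, which takes part in the control of pain. Bcl11b, Foxp2, Crym and Pcp4 are also expressed in the striatum, which lies beside the medial cortex.

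Library totals overlapped little between groups, at 62909267 to 73586375 counts in R-HNK mice, 58755461 to 65688561 in injured saline mice and 53624337 to 58654404 in sham mice, and values are given as CPM (counts scaled to a common library size) to remove that difference. Slc17a7, the vesicular glutamate transporter of cortical excitatory neurons, measured 1480 to 2090 CPM in the 9 libraries. As a marker of such neurons at large, it cannot tell the prelimbic cortex from other cortical areas. Markers of striatal medium spiny neurons set 4 libraries apart. Drd2, their dopamine receptor, reached 17.5 and 24.6 CPM in R-HNK replicates 1 and 3 and 44.0 and 41.8 CPM in sham replicates 2 and 3, against 1.23 to 1.72 CPM in the other 5 libraries, all 3 injured saline libraries among them. Summed over 15 striatal markers, the level ran from 288 to 1020 CPM in R-HNK mice, from 260 to 301 CPM in injured saline mice and from 301 to 1620 CPM in sham mice. Of the 15, Isl1, Six3 and Ido1 were at 0 in some of the 5 libraries with low levels. Summed over 8 oligodendrocyte markers, the level was 3390 to 6600 CPM in R-HNK mice, 3260 to 4610 CPM in injured saline mice and 3270 to 6830 CPM in sham mice. The same 4 libraries were the highest, at 4900 and 6600 CPM in R-HNK replicates 1 and 3 and 6180 and 6830 CPM in sham replicates 2 and 3. Slc17a7 was lower in these 4 libraries, at 1480 to 1860 CPM, against 1880 to 2090 CPM in the other 5, and 4.26% of all genes tested lay wholly lower there. In RNA of whole tissue, fewer cells of a type and less RNA per cell cannot be told apart.

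To compare genes with one another, CPM were divided by the length of all annotated exons of a gene in kilobases. Pcp4, a small regulator of calmodulin, stood highest, with 231 ± 25.6 CPM per kb over the 9 libraries (SD; range 189 to 278). Below it came Rprm at 48.0 ± 9.15, Crym at 34.9 ± 5.35 and Tbr1 at 34.3 ± 4.98 CPM per kb, and the ranges of these 3 genes overlapped. Fezf2 at 17.2 ± 4.80, Bcl11b at 16.1 ± 3.45 and Tle4 at 13.0 ± 0.82 CPM per kb formed the next set with overlapping ranges. Syt6 had 7.77 ± 1.35 CPM per kb. Foxp2 had 1.26 ± 0.28 CPM per kb over 16.346 kb, a length that counts every annotated exon whether it is used in this tissue or not. Across libraries Fezf2 varied most, with a coefficient of variation of 28.0% and a highest CPM 2.4 times its lowest, and Tle4 varied least, at 6.31% and 1.2 times.

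**Figure D1:**
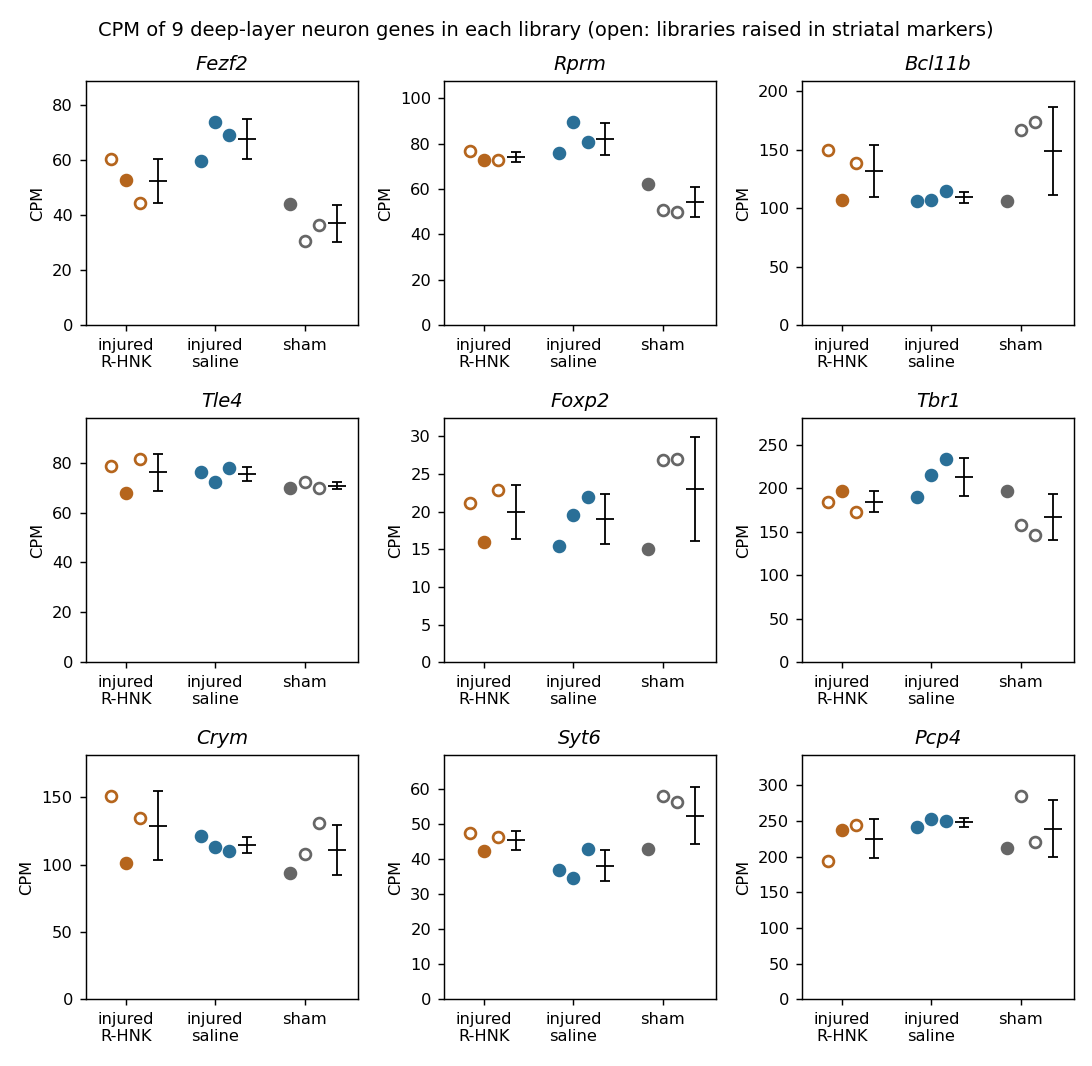
CPM of each of the 9 genes (vertical axis, from 0) in the 3 libraries of each group, with the mean and SD beside the points. Open points are the 4 libraries with raised striatal markers. Fezf2 and Rprm lay higher in all 3 injured saline libraries than in any sham library, while Bcl11b lay at 139 CPM or more in the 4 open points and at 115 CPM or less elsewhere.

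On GRCm38, Bcl11b lies at chr12:107910403-108003602 (minus strand), Tle4 at chr19:14448150-14598051 (minus), Tbr1 at chr2:61802930-61814114 (plus) and Foxp2 at chr6:14901349-15441977 (plus). Crym lies at chr7:120186380-120202111 (minus), Syt6 at chr3:103575231-103645569 (plus) and Pcp4 at chr16:96467606-96525793 (plus).

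The first comparison, of injured saline with sham mice, asks what nerve injury changed in the prelimbic cortex. Fezf2 and Rprm rose in injured saline mice, no member of the 9 fell, and the other 7 did not pass the test. Of all genes tested 1.07% passed (0.515% higher and 0.556% lower), and 2 of these 9 did. At an unadjusted p under 0.05 there were 5 of the 9, against 16.6% of all genes tested. Fezf2, the zinc finger factor that specifies layer 5 output neurons, had 59.6, 73.8 and 68.9 CPM in the injured saline libraries, against 44.0, 30.7 and 36.2 CPM in the sham libraries. Every injured saline library was above every sham library. The log2 fold change was 0.87 ± 0.14 (SE; 95% interval 0.55 to 1.18; adjusted p = 0.0173). Rprm, which encodes Reprimo, a p53-induced mediator of cell cycle arrest that also marks deep-layer neurons, had 75.8, 89.6 and 80.7 CPM in injured saline mice, against 62.1, 50.8 and 49.9 CPM in sham mice. These groups did not overlap either, and the log2 fold change was 0.60 ± 0.09 (95% interval 0.40 to 0.79; adjusted p = 0.0091).

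Within the sham group, the library without raised striatal markers, replicate 1, was the highest for Fezf2 and for Rprm, and it still lay below the injured saline libraries. With the 4 libraries of raised striatal markers left out, the fold changes were 0.62 ± 0.13 for Fezf2 (adjusted p = 0.0894) and 0.41 ± 0.12 for Rprm (adjusted p = 0.305), set against sham replicate 1 alone, with the spread taken from the injured saline libraries. With the mean of the striatal markers as a covariate they were 0.69 ± 0.16 (adjusted p = 0.104) and 0.49 ± 0.11 (adjusted p = 0.0795). So 0 of the 9 genes passed in each of these fits, and the direction of Fezf2 and Rprm stayed the same. The Fezf2 call was also lost without sham replicate 2 (adjusted p = 0.0575), sham replicate 3 (0.0861), injured saline replicate 2 (0.0887) or injured saline replicate 3 (0.100). The Rprm call was lost without sham replicate 2 (0.0586) or injured saline replicate 2 (0.0609). Over all 18 other settings the adjusted p ran from 2.11e-07 to 0.104 for Fezf2 and from 1.01e-06 to 0.399 for Rprm.

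The sequences just upstream of these 2 genes, the members that rose together, are shown as RefSeq gives them on GRCm38.p6, 250 bases ending at the base before the transcription start, 5′ to 3′ on the strand of the gene. Capitals mark matches on either strand to the letters of an AP-1 site (TGANTCA) or a GC box (GGGCGG).
Fezf2, chr14:12345866-12346115, minus strand: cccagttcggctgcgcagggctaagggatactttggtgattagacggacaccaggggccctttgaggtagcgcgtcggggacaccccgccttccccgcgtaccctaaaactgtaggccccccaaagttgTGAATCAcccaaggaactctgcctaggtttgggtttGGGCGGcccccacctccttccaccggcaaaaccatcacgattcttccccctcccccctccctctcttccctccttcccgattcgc
Rprm, chr2:54085553-54085802, minus strand: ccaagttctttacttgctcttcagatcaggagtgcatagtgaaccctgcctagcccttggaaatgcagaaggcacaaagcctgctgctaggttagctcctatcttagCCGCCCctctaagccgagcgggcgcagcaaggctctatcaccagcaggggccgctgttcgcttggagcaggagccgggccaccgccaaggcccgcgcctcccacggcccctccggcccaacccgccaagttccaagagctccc
The Fezf2 window holds TGAATCA, 121 to 115 bases before the start, and 6.75% of the 32851 RefSeq promoter windows of this length hold an AP-1 match. It also holds a GC box at 85 to 80 bases, and Rprm holds one, on the other strand, at 143 to 138 bases; 32.7% of windows do. Neither window matched a CRE (TGACGTCA, in 1.55% of windows), an EGR site (GCGNGGGCG, 4.70%), TATAAA (12.4%) or CCAAT (33.8%), and the matches did not overlap one another. Both windows are rich in G and C, at 61.2% for Fezf2 and 62.4% for Rprm, against a median of 52.4%. Some members that did not pass share the high content of G and C or the GC box, but none with a window holds an AP-1 match. Windows of Tle4 (65.2% and 70.8%) and Syt6 (60.4% to 66.0%) are also rich and hold GC boxes, and the Tbr1 window (45.2%) holds one too. Those of Bcl11b (44.8%) and Pcp4 (46.8%) are not rich and hold no match to any of these motifs. Of the 9 genes 7 had a window in that table, and GENCODE places Fezf2 on chromosome 14 from 12342094 to 12348189, with a transcript that begins upstream of the RefSeq start used here. Rprm lies on chromosome 2 from 54084093 to 54085552, on the same assembly.

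Among the other transcription factors, Tbr1, the T-box factor of layer 6 corticothalamic neurons, had 190, 215 and 234 CPM in injured saline mice, against 197, 158 and 146 CPM in sham mice. Its groups overlapped through sham replicate 1, and the log2 fold change of 0.35 ± 0.11 (95% interval 0.12 to 0.59) did not pass (adjusted p = 0.137). Bcl11b, the zinc finger factor also known as CTIP2, had 106, 107 and 115 CPM in injured saline mice, against 106, 167 and 174 CPM in sham mice. Here sham replicate 1 lay with the injured libraries and sham replicates 2 and 3 stood apart. Its fold change was -0.45 ± 0.19 (95% interval -0.88 to -0.01; adjusted p = 0.288), and without the 4 libraries it was 0.05 ± 0.10. Foxp2, a forkhead factor of layer 6 neurons, had 15.4, 19.6 and 22.0 CPM in injured saline mice, against 15.1, 26.9 and 27 CPM in sham mice. The same pair of sham libraries was high, and its fold change of -0.28 ± 0.23 (adjusted p = 0.607) became 0.33 ± 0.19 without the 4 libraries. Tle4, a Groucho-type corepressor of layer 5 and 6 neurons, spanned 72.2 to 77.7 CPM in injured saline mice and 69.8 to 72.4 CPM in sham mice (0.09 ± 0.08; 95% interval -0.07 to 0.26; adjusted p = 0.593).

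Syt6, a synaptotagmin found in layer 6 neurons, had 36.8, 34.5 and 43.0 CPM in injured saline mice, against 43.0, 58.0 and 56.3 CPM in sham mice. Sham replicate 1 lay above the highest injured saline library by less than the rounding, so the groups only just did not overlap. The fold change was -0.46 ± 0.11 (95% interval -0.71 to -0.21) and missed the threshold (adjusted p = 0.0737), with 0.0493 without the filter on low counts, 0.0107 in DESeq2 and a range of 0.00555 to 0.821 over all 18 settings. Without the 4 libraries it was -0.17 ± 0.14. Crym, a thyroid hormone-binding crystallin, spanned 110 to 121 CPM in injured saline mice and 93.8 to 131 CPM in sham mice (0.05 ± 0.15; 95% interval -0.28 to 0.38; adjusted p = 0.905). Pcp4 spanned 241 to 253 CPM in injured saline mice and 212 to 285 CPM in sham mice (0.05 ± 0.11; 95% interval -0.19 to 0.29; adjusted p = 0.867). In GENCODE some exon bases of Syt6 are shared with Atg4a-ps on the opposite strand and some of Pcp4 with Igsf5 on the same strand. Both partners stayed under 1 CPM in every library, and the sources used here do not say whether reads were counted by strand.

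Over the 9 genes, groups that did not overlap were found for 2 higher and 1 lower, against 10.9% of all genes tested in each direction. The median log2 fold change of the 9 was 0.05 and that of all genes tested was -0.02. The number of members that passed changed with single libraries. Without sham replicate 1 there were 5, Fezf2, Rprm and Tbr1 higher and Bcl11b and Syt6 lower. Without sham replicate 2 or injured saline replicate 2 none passed, and without sham replicate 3 or injured saline replicate 3 Rprm alone did. DESeq2 called 4 members, Fezf2, Rprm and Tbr1 as higher and Syt6 as lower.

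**Figure D2:**
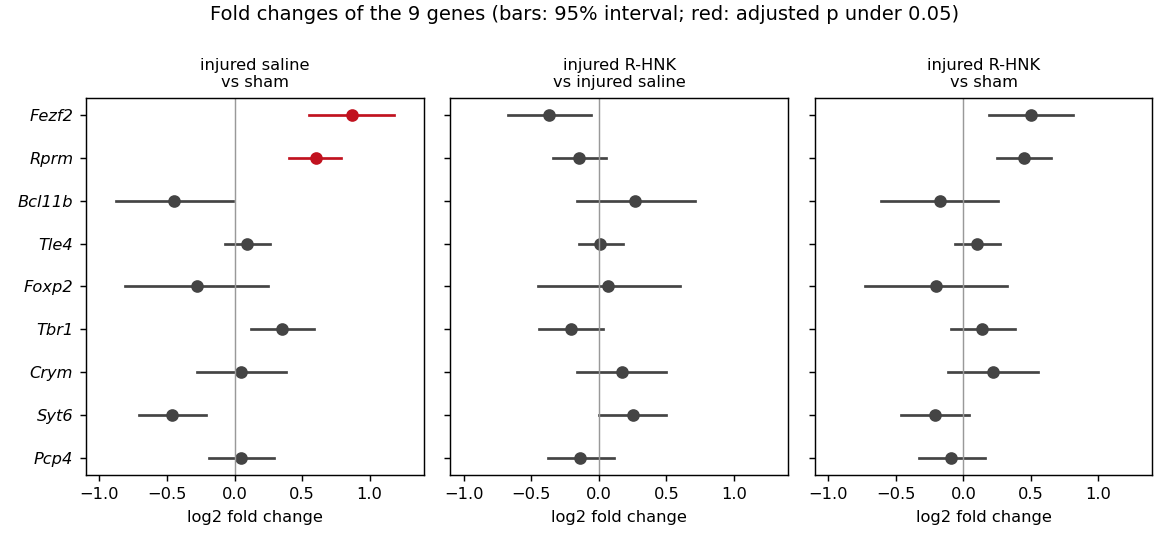
Log2 fold change of each gene with its 95% interval (horizontal axis) in the 3 comparisons, red where the adjusted p is under 0.05. The red points are Fezf2 at 0.87 and Rprm at 0.60 in injured saline against sham mice. The intervals of Tle4, Foxp2, Crym and Pcp4 include 0 in every panel.

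Set side by side, the 9 genes followed different courses over the libraries. The difference between a pair of genes was measured as the root mean square of the differences of their log2 CPM, each taken relative to its own mean of the 9 libraries. Bcl11b and Syt6 were the closest pair, at 0.125, and Bcl11b and Foxp2 came next at 0.147, Rprm and Tbr1 at 0.157. Fezf2 and Rprm differed by 0.165. The farthest pair was Fezf2 and Bcl11b at 0.627, followed by Fezf2 and Syt6 at 0.61. The ratio of Fezf2 to Bcl11b CPM was 0.400, 0.491 and 0.319 in R-HNK mice, 0.562, 0.691 and 0.598 in injured saline mice and 0.416, 0.184 and 0.208 in sham mice.

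Bcl11b, Syt6 and Tbr1 divided along the striatal markers. In the 4 libraries raised in those markers Bcl11b spanned 139 to 174 CPM, against 106 to 115 CPM in the other 5, and Syt6 spanned 46.2 to 58.0 CPM, against 34.5 to 43.0 CPM. Tbr1 went the other way, with 146 to 184 CPM in the 4 libraries and 190 to 234 CPM in the other 5. Of all genes tested 5.12% lay wholly above and 4.26% wholly below in the same 4 libraries. Foxp2 (21.1 to 27, against 15.1 to 22.0 CPM), Fezf2 (30.7 to 60.1, against 44.0 to 73.8 CPM) and the other 4 members overlapped. The 4 libraries include no injured saline mouse, and the part of the striatal markers in the differences between groups was not tested beyond the 2 fits named above.

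**Figure D3:**
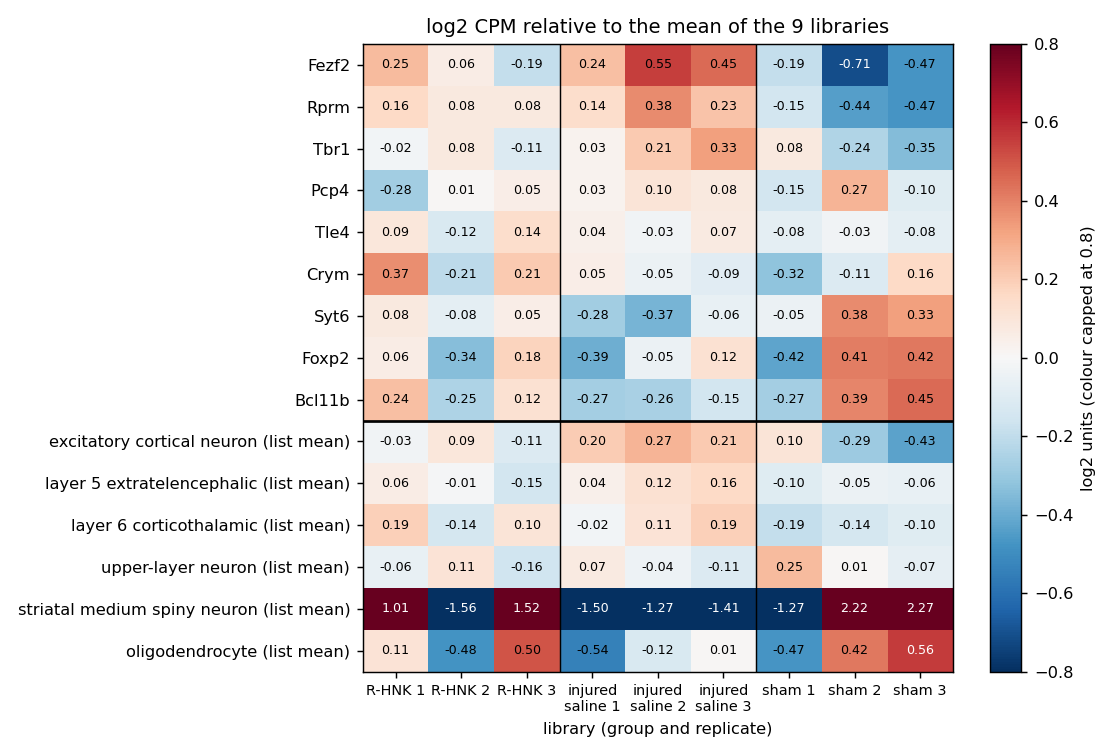
Log2 CPM relative to the mean of the 9 libraries, for each of the 9 genes (upper rows) and averaged over 6 marker lists (lower rows), by library. The striatal row is above 1 in R-HNK replicates 1 and 3 and in sham replicates 2 and 3, where Bcl11b is above 0 and Tbr1 below 0.

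The 10 excitatory markers, of which Tbr1 is one, summed to 6260 to 6450 CPM in R-HNK mice, 6690 to 7260 CPM in injured saline mice and 5480 to 6840 CPM in sham mice. These sums overlapped between injured saline and sham mice, with Camk2a alone at 2800 to 3370 CPM in the 9 libraries. As a mean of log2 CPM, each gene relative to its own mean of the 9 libraries, the list did not overlap. It stood at 0.20, 0.27 and 0.21 in injured saline mice and at 0.10, -0.29 and -0.43 in sham mice. Of the 10 markers 5, Slc17a7 among them, lay higher without overlap, against 10.9% of all genes tested. Within each library Fezf2 was also set against Slc17a7. The ratio of their CPM was 0.0285, 0.0358 and 0.0346 in injured saline mice, against 0.0227, 0.0200 and 0.0245 in sham mice. For Rprm the ratio was 0.0363, 0.0435 and 0.0405 in injured saline mice, against 0.0321, 0.0331 and 0.0338 in sham mice. The groups did not overlap in either ratio, which was so, in this direction, for 1.23% of all genes tested. The mean log2 differences were 0.55 and 0.28, each with an exact two-sided permutation p of 0.1, the smallest that 3 mice against 3 allow. When the libraries were scaled on the excitatory markers without Tbr1, the median of all genes moved to -0.48, and 45 genes passed as higher and 7369 as lower, against 112 and 121 on the TMM scale. On that scale Fezf2 changed by 0.43 ± 0.16 (adjusted p = 0.0435) and Rprm by 0.15 ± 0.15 (adjusted p = 0.399), while Syt6 fell by 0.95 (adjusted p = 0.00555) and Bcl11b fell by 0.95 (adjusted p = 0.0441).

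Other markers of the deep layers were counted from lists. Of 9 further markers of layer 5 extratelencephalic neurons 1 rose and 8 did not pass (median 0.18). At an unadjusted p under 0.05 there were 4, and DESeq2 called 3 as higher. The gene that rose was Ldb2, which encodes a LIM domain-binding cofactor, with 79.1, 86.2 and 80.7 CPM in injured saline mice, against 68.2, 49.9 and 49.1 CPM in sham mice (0.56 ± 0.12, adjusted p = 0.0478). Of 8 corticothalamic markers 1 rose, Garnl3, with 155, 163 and 158 CPM in injured saline mice, against 137, 118 and 108 CPM in sham mice (0.39 ± 0.09, adjusted p = 0.0498; -0.05 on the scale of the excitatory markers), and 7 did not pass (median 0.26). Here too 4 had an unadjusted p under 0.05, and DESeq2 called 3 as higher. On the scale of the excitatory markers, where the median of all genes is -0.48, the medians of these lists were -0.27 and -0.21, with 1 marker of each called as lower. Of 6 markers of layer 6b 0 passed in edgeR or DESeq2 and 0 had an unadjusted p under 0.05 (median -0.02). The 2 with the smallest p were Nxph4, which encodes a neurexophilin, at -0.46 ± 0.21 (adjusted p = 0.306) and Cplx3, a complexin, at 0.23 ± 0.17 (adjusted p = 0.542). Of 4 markers of layer 5 intratelencephalic neurons 0 passed in edgeR, 2 had an unadjusted p under 0.05 and DESeq2 called 1 as higher (median 0.20). The 2 with the smallest p were Sulf2, a heparan sulfate sulfatase, at 0.26 ± 0.08 (adjusted p = 0.125) and Deptor, an inhibitor of mTOR, at 0.41 ± 0.16 (adjusted p = 0.230).

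Of 10 upper-layer markers 0 passed in edgeR (3 at an unadjusted p under 0.05, and 1 lower in DESeq2), and their median was -0.09. The 2 with the smallest p were Cux1, a homeobox factor, at -0.34 ± 0.10 (adjusted p = 0.121) and Wfs1, the wolframin gene, at -0.24 ± 0.10 (adjusted p = 0.238). Of the 10 general excitatory markers 2 rose, none fell and 8 did not pass, with a median of 0.46 and every member above 0. DESeq2 called 6 of the 10 as higher, 8 passed without sham replicate 1, and 0 passed without sham replicate 2, injured saline replicate 2 or injured saline replicate 3. Neurod6, a basic helix-loop-helix factor of excitatory neurons, had 116, 123 and 119 CPM in injured saline mice, against 88.3, 66.5 and 66.2 CPM in sham mice (0.70 ± 0.11, adjusted p = 0.00901). Nptx1, which encodes a pentraxin that clusters AMPA receptors, had 603, 611 and 639 CPM, against 521, 397 and 410 CPM (0.48 ± 0.10, adjusted p = 0.0455). Of the 18 other settings Ldb2 passed in 6, Garnl3 in 5, Nptx1 in 7 and Neurod6 in 13. Ldb2, Garnl3 and Nptx1 did not pass with upper quartile scaling, nor in 7 of the 9 fits that left out a library, and with the striatal covariate they stood at 0.34, 0.23 and 0.40 (adjusted p = 0.316, 0.392 and 0.277). With the 4 libraries left out they stood at 0.27, 0.22 and 0.25, and Neurod6 at 0.44 (adjusted p = 0.126). Leaving out injured saline replicate 2 or 3 or sham replicate 2 also ended the Neurod6 call, at adjusted p-values of 0.0562, 0.052 and 0.0538.

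**Figure D4:**
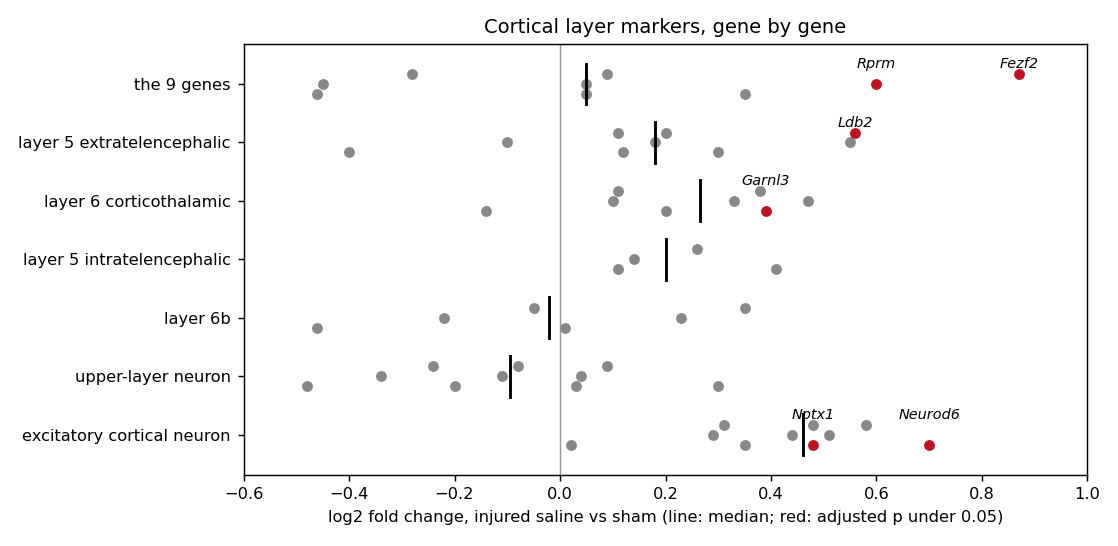
Log2 fold change of each gene of 6 marker lists and of the 9 genes, injured saline against sham mice (horizontal axis), with the median of each list as a line and genes with an adjusted p under 0.05 in red and named. The median of the 9 genes is 0.05 and that of the excitatory list is 0.46, while the upper-layer list has a median of -0.09 and no red point.

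Markers of other cell types were counted in the same way. Of the 15 striatal markers 0 passed in edgeR, with 11 at an unadjusted p under 0.05 and 8 lower in DESeq2. Their median was -2.35, and the 2 with the smallest p were Syndig1l at -3.72 ± 1.09 (adjusted p = 0.177) and Penk, the enkephalin precursor gene, at -2.35 ± 0.73 (adjusted p = 0.197). Of 9 interneuron markers 2 fell and none rose in edgeR. Those that fell were Dlx1, a homeobox factor of inhibitory neurons, by 0.68 ± 0.08 (adjusted p = 0.00215), and Adarb2, an RNA-editing family member, by 0.60 ± 0.12 (adjusted p = 0.0305). DESeq2 called 5 interneuron markers as lower and 1 as higher. On this list, Gad2 (154, 261 and 260 CPM) and Slc32a1 (113, 160 and 162 CPM) stood apart in sham replicates 2 and 3, which had raised striatal markers. Dlx1 (69.2, 72.5 and 72.2 CPM) and Adarb2 (23.9, 25.5 and 20.8 CPM) did not split the sham libraries in this way. Of 8 meningeal fibroblast markers 3 fell, Igf2, Fmod and Col1a1, and their summed level was 28.4 to 32.3 CPM in injured saline mice, against 44.5 to 67.2 CPM in sham mice. The count of meningeal markers that fell was 6 in DESeq2, 1 with the striatal covariate, 1 without the 4 libraries, and 0 without injured saline replicate 2 or 3. The count of interneuron markers that fell was 2 with the covariate and 1 without the 4 libraries. Of 8 oligodendrocyte markers 0 passed in edgeR or DESeq2 and 0 had an unadjusted p under 0.05, with a median of -0.44. The 2 with the smallest p were Opalin at -0.54 ± 0.38 (adjusted p = 0.545) and Mag at -0.45 ± 0.33 (adjusted p = 0.556). Whether these cell types contributed to the levels of the 9 genes was not tested.

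The second comparison, of R-HNK with injured saline mice, asks what the drug changed after injury. None of the 9 genes passed the test in edgeR, against 0.119% of all genes tested; 2 had an unadjusted p under 0.05, against 7.47% of all genes, and DESeq2 called 0. Fezf2 had 60.1, 52.7 and 44.3 CPM in R-HNK mice, against 59.6, 73.8 and 68.9 CPM in injured saline mice. Its groups overlapped, since R-HNK replicate 1 lay just above injured saline replicate 1, and the log2 fold change was -0.37 ± 0.14 (95% interval -0.67 to -0.06; adjusted p = 0.613). Rprm had 76.8, 72.7 and 72.7 CPM in R-HNK mice, against 75.8, 89.6 and 80.7 CPM in injured saline mice (-0.15 ± 0.09; 95% interval -0.34 to 0.05; adjusted p = 0.726). The other gene with an unadjusted p under 0.05 was Syt6, with 47.4, 42.4 and 46.2 CPM in R-HNK mice, against 36.8, 34.5 and 43.0 CPM in injured saline mice (0.25 ± 0.11; adjusted p = 0.658).

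Tbr1 had 184, 197 and 173 CPM in R-HNK mice, against 190, 215 and 234 CPM in injured saline mice (-0.21 ± 0.11; 95% interval -0.44 to 0.03; adjusted p = 0.696). Bcl11b had 150, 107 and 139 CPM in R-HNK mice, against 106, 107 and 115 CPM in injured saline mice, with R-HNK replicates 1 and 3, the libraries raised in striatal markers, above all others (0.27 ± 0.19; adjusted p = 0.770). Crym showed the same split, at 151, 101 and 135 CPM in R-HNK mice, against 121, 113 and 110 CPM in injured saline mice (0.17 ± 0.15; adjusted p = 0.814). Leaving out the libraries with raised striatal markers keeps R-HNK replicate 2 alone, and then Bcl11b stood at -0.03 and Crym at -0.18. The intervals of Foxp2 (0.07; -0.45 to 0.60), Tle4 (0.01; -0.15 to 0.18) and Pcp4 (-0.14; -0.38 to 0.11) all included 0, with adjusted p-values of 0.968, 0.985 and 0.801. No member separated the 2 groups without overlap, which 7.15% of all genes tested did as higher and 6.59% as lower. The median of the 9 was 0.01, as was that of all genes tested.

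The third comparison set R-HNK against sham mice, and shares its R-HNK and sham libraries with the other comparisons. Again none of the 9 genes passed in edgeR, where 0.00459% of all genes did; 2 had an unadjusted p under 0.05, against 3.53% of all genes, and DESeq2 called Rprm (adjusted p = 0.0287). Fezf2 had 60.1, 52.7 and 44.3 CPM in R-HNK mice, against 44.0, 30.7 and 36.2 CPM in sham mice, and Rprm had 76.8, 72.7 and 72.7 CPM, against 62.1, 50.8 and 49.9 CPM. Every R-HNK library lay above every sham library in both genes, though R-HNK replicate 3 exceeded sham replicate 1 by little for Fezf2; 4.43% of all genes tested lay higher without overlap. The log2 fold changes were 0.50 ± 0.14 for Fezf2 (95% interval 0.19 to 0.81; adjusted p = 1) and 0.45 ± 0.09 for Rprm (95% interval 0.25 to 0.65; adjusted p = 0.930). Without sham replicate 1, Rprm passed (adjusted p = 0.037).

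The other 7 genes overlapped between R-HNK and sham mice, and none lay lower without overlap, against 4.42% of all genes tested. Their fold changes ran from -0.21 ± 0.11 for Syt6 to 0.22 ± 0.15 for Crym, and each had an adjusted p of 1. The median of the 9 was 0.10 and that of all genes tested was -0.01. Bcl11b, at 132 ± 22.3 CPM in R-HNK mice and 149 ± 37.7 CPM in sham mice (SD, n = 3 each), had in each of these groups a single library near the injured saline level of 109 ± 5.09 CPM, the one without raised striatal markers.

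Set against Slc17a7 within each library, Fezf2 gave ratios of 0.0323, 0.0280 and 0.0249 in R-HNK mice, which overlapped those of injured saline mice and lay above all 3 of sham mice. The mean log2 difference was -0.22 from injured saline mice (exact two-sided permutation p = 0.2) and 0.34 from sham mice (p = 0.1, exact, the smallest possible). For Rprm the ratios were 0.0413, 0.0387 and 0.0409 in R-HNK mice, and the mean, 0.0403 ± 0.0014, was close to the 0.0401 ± 0.00361 of injured saline mice (0.01; exact p = 0.8). Against sham mice, at 0.033 ± 0.000854, the difference was 0.29 (exact p = 0.1), and 0.924% of all genes tested lay higher without overlap on this ratio.

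Across the other lists 1 marker passed between R-HNK and injured saline mice in edgeR, Dlx1, with 62.8, 72.0 and 60.9 CPM in R-HNK mice, against 48.7, 42.9 and 41.9 CPM in injured saline mice (0.55 ± 0.08, adjusted p = 0.0209). No interneuron marker passed on the scale of the excitatory markers, or without injured saline replicate 2, injured saline replicate 3 or R-HNK replicate 1. DESeq2 called 1 interneuron and 1 meningeal fibroblast marker as higher. No marker of the layer lists passed against injured saline mice in edgeR, and their medians were -0.21 for layer 5 extratelencephalic, -0.04 for corticothalamic, 0.20 for layer 6b, -0.14 for layer 5 intratelencephalic and 0.03 for upper-layer markers. Unadjusted p-values were under 0.05 for 3, 1, 0, 1 and 0 of these markers in the same order, and DESeq2 called 1, a layer 5 extratelencephalic marker that was lower. The excitatory list had a median of -0.25, with 2 markers at an unadjusted p under 0.05. Against sham mice no marker of any list passed in edgeR or DESeq2, with medians of -0.03 for layer 5 extratelencephalic markers (1 at an unadjusted p under 0.05), 0.20 for corticothalamic markers (3) and 0.18 for excitatory markers (2).

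To find genes that moved like Fezf2 and Rprm, the same root mean square difference was computed against 13301 genes. These had a mean log2 CPM of at least 0 and an annotation match, and were neither members, pseudogenes nor predicted genes (Gm or Rik symbols). Nearest to Fezf2 were Neurod6 at 0.127, Trabd2b, which encodes a metalloprotease that acts on Wnt proteins, at 0.152, and Ldb2 at 0.154, where the median over all these genes was 0.418. Nearest to Rprm were Ptgs2, the inducible cyclooxygenase, at 0.087, Ldb2 at 0.090 and Efhd2, a calcium-binding protein gene, at 0.104, with a median of 0.303. Ldb2 thus stood in both sets. Ptgs2 had 16, 14.0 and 14.9 CPM in R-HNK mice, 14.7, 18.0 and 17.3 CPM in injured saline mice and 10.8, 9.52 and 10.3 CPM in sham mice, with the sham mice lowest. These genes were chosen for their pattern over the 9 libraries, and no test is attached to it.

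**Figure D5:**
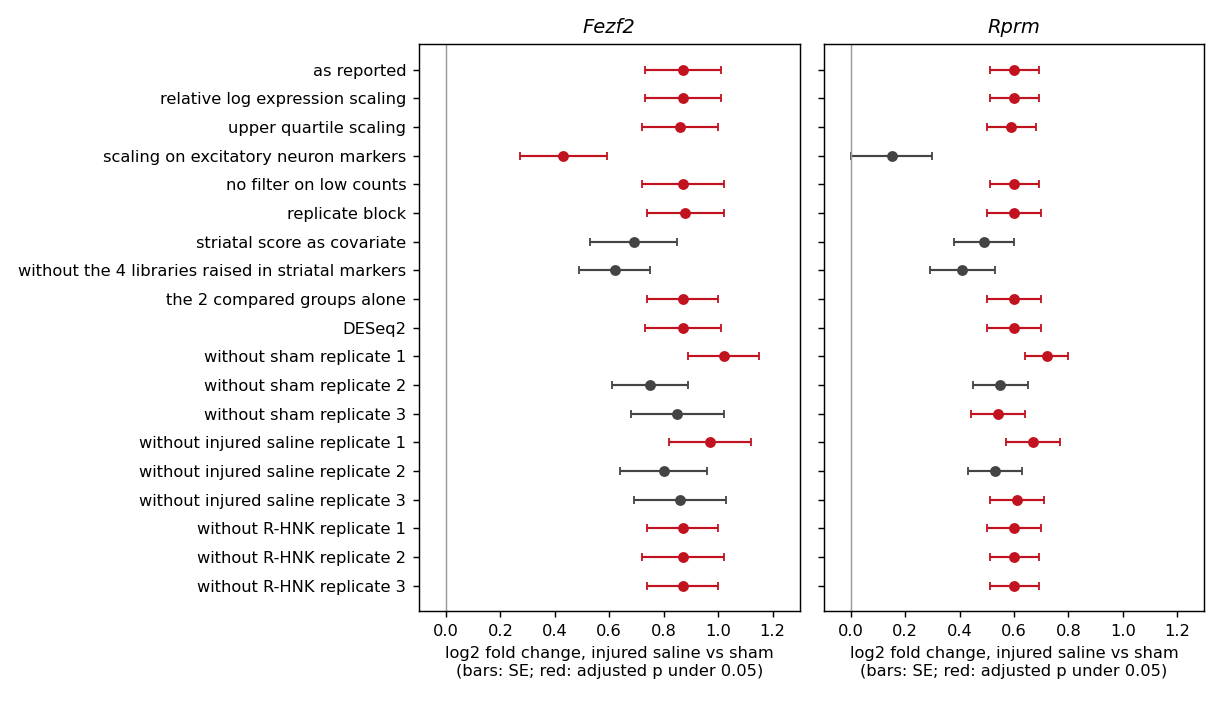
Log2 fold change of Fezf2 (left) and Rprm (right) in injured saline against sham mice with its SE (horizontal axis), as reported and under the 18 other settings, red where the adjusted p is under 0.05. All values are above 0, from 0.43 to 1.02 for Fezf2 and from 0.15 to 0.72 for Rprm, and 12 and 13 of the 18 passed.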

How the data were processed

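RNA of the prelimbic cortex of 9 mice (3 per group, 1 library each) was sequenced. The deposited table holds the authors' estimated counts per gene for 55335 genes, all of them whole numbers. The submitters' processing notes name HISAT2 2.0.5, featureCounts 1.5.0-p3 and mm10, and give neither the annotation nor the strand setting used. The deposited counts are labelled with the name of another tool, StringTie, so which tool gave them is not settled here. Library totals of 53624337 to 73586375 counts limit precision less than the spread between 3 mice does.

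Counts were tested in edgeR 4.0.16 (R 4.3.3, limma 3.58.1): filterByExpr kept 21765 genes holding 99.96% of counts, TMM factors ran from 0.979 to 1.03, and 1 robust quasi-likelihood fit over all 9 libraries gave the 3 contrasts, with Benjamini-Hochberg adjustment over all genes tested and a threshold of 0.05. The common biological coefficient of variation was 0.203. The comparisons share groups and are not independent. The fits were checked on simulated counts with known changes, all larger than those reported for Fezf2 and Rprm. The simulation did not model striatal tissue that differs between libraries, so it does not bear on these calls. Log2 CPM used a prior count of 2. Libraries with Drd2 and Adora2a both above 10 CPM were taken as raised in striatal markers. Exon lengths and gene positions came from GENCODE on GRCm38 and promoter sequences from RefSeq. DESeq2 1.42.0, other scalings, no filter, a striatal covariate, a replicate block and leaving out libraries were the 18 alternatives.

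Members, lists, motifs and alternatives were chosen with earlier results of these data known. The genes named were all 9 members, every list gene that passed a comparison or, where none did, the 2 with the smallest p in injured saline against sham mice, and the 3 genes nearest in pattern to Fezf2 and to Rprm. Set tests were not run.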

Additional observations from a re-analysis of the deposited data

How the results depend on the processing

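Between injured saline and sham mice 2 of the 9 genes passed; this was 4 in DESeq2, 3 on the excitatory marker scale and 3 without the filter on low counts, 0 with the striatal covariate, 0 without the 4 libraries raised in striatal markers, and 0 to 5 when 1 library was left out. In R-HNK against injured saline mice the count was 0 under every alternative, and in R-HNK against sham mice it was 0 except 1 in DESeq2 and 0 to 1 when 1 library was left out. Over all genes the 233 calls of injured saline against sham mice became 60 to 1170 without 1 library, 98 with the covariate, 86 without the 4 libraries, 162 with the replicate block, 370 without the filter, 1140 in DESeq2 and 7414 (45 higher) on the excitatory scale. The 26 of R-HNK against injured saline mice became 7 to 56, 16 with the block, 53 in a fit of those groups alone, 136 in DESeq2 and 9 on the excitatory scale, and the 1 of R-HNK against sham mice became 1 to 11, 11 in DESeq2 and 25 without the 4 libraries, where 1 R-HNK library is set against 1 sham library with the spread of the injured saline libraries, so this comparison has no replicates of its own.

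Fold changes took the other sign under 3 alternatives and when a library was left out. The excitatory scale moved the median of all genes to -0.48, 0.26 and -0.21 in the 3 comparisons. There injured saline against sham gave Tle4 -0.37, Tbr1 -0.08, Crym -0.44, Pcp4 -0.42 and Garnl3 -0.05, R-HNK against injured saline gave Rprm 0.11, Tbr1 0.04 and Pcp4 0.12, and R-HNK against sham gave Tle4 -0.1 and Tbr1 -0.04. With the covariate, injured saline against sham gave Bcl11b 0.02 and Foxp2 0.28, and R-HNK against injured saline gave Bcl11b -0.04, Tle4 -0.06, Foxp2 -0.3 and Crym -0.06. Without the 4 libraries the values were Bcl11b 0.05 and Foxp2 0.33, then Bcl11b -0.03, Tle4 -0.16, Foxp2 -0.25 and Crym -0.18, and in R-HNK against sham Bcl11b 0.02, Tle4 -0.04, Foxp2 0.08 and Pcp4 0.17. Leaving out 1 library gave Crym -0.05 to 0.19 and Pcp4 -0.02 to 0.20 in injured saline against sham, Tle4 -0.04 to 0.09 and Foxp2 -0.06 to 0.21 in R-HNK against injured saline, and Pcp4 -0.16 to 0.06 in R-HNK against sham. None of these values passed the test, and the cause was not tested.

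Replicate numbers are shared between groups. Deviations of same-numbered libraries correlated at -0.1 to 0.09, and those of differently numbered libraries at -0.16 to 0.18. With 3 libraries per group these values cannot show whether the numbers pair mice or mark a batch. With the replicate block 2 of the 9 genes passed between injured saline and sham mice, Fezf2 at 0.88 (adjusted p = 0.0356) and Rprm at 0.60 (adjusted p = 0.0254), and 0 in the other comparisons. Garnl3 (adjusted p = 0.0807) did not pass with it, nor did any interneuron marker, Dlx1 included, in R-HNK against injured saline mice.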
